A study of Rattus norvegicus with 11 samples.

Results

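The major histocompatibility complex (MHC) class II presentation genes were followed in rat lung by 9 genes: RT1-Da, RT1-Db1, RT1-Ba, RT1-Bb, RT1-DMa, RT1-DMb, Cd74, Ctss and Ciita. These are 9 of the 14863 genes that the array annotation names. All probe sets, the groups of short probes that report 1 transcript, were taken whose gene symbol in the array annotation is one of these names. They numbered 15 of the 31042 probe sets tested: 4 for RT1-Ba, 2 each for RT1-Bb, RT1-Db1 and Ciita, and 1 for each other gene. None of the 15 names a further gene, and all 9 genes were found. The samples were whole lungs of Dahl salt-sensitive rats, a strain bred for a rise in blood pressure on salt, weighing 250 to 350 g and taken after 3.5 weeks. The groups were hypoxia at an inspired oxygen of about 9.5% with SU5416, an inhibitor of the receptors for vascular endothelial growth factor (3 arrays), the same hypoxia with vehicle (4 arrays), and room air with vehicle, called normoxia (4 arrays). The study pairs hypoxia with SU5416 as a model of pulmonary hypertension, and its group that also received sorafenib was not analysed here. No group analysed here received SU5416 without hypoxia, so the inhibitor is compared only within hypoxia. The labels give no doses and do not say that each array is a separate animal, so the p-values treat arrays as independent and measure the spread between arrays.

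Class II molecules show peptides from engulfed material to CD4+ T cells. An alpha and a beta chain form the molecule: RT1-Da and RT1-Db1 encode the rat DR-type pair, and RT1-Ba and RT1-Bb the DQ-type pair. Cd74, the invariant chain, fills the groove until proteases of the endosome, cathepsin S (Ctss) among them, cut it down. RT1-DMa and RT1-DMb form the DM molecule, which exchanges the remaining fragment for a peptide, and Ciita is the transactivator that turns the whole set on. In lung, B cells, dendritic cells and macrophages carry class II, and alveolar type II cells carry it too. The chains are highly polymorphic between rat strains, and the signal of a short probe depends on how well it pairs with the transcript.

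Values are log2 signal intensities, so a difference of 1 is a doubling, and levels of different probe sets are not compared with each other. The background level was 5.72 log2, the 95th percentile of 27 probe sets for bacterial control transcripts. The mean of every class II probe set was above it except for RT1-Bb 1371065_at in hypoxia and normoxia, and 14 of the 15 were above it on every array. All 6 measured lung markers were above background as well, which fits the labelled tissue, and the labels state that the pulmonary vessels were perfused before collection. The gap between the 3′ and 5′ control probe sets of beta-actin, a measure of RNA degradation, reached 2.24 in normoxia array 1 and 1.33 in normoxia array 2, while the remaining 9 arrays had 0.51 to 0.87. The test was passed, and a probe set counted as called, when the adjusted p was under 0.05 (limma, all 11 arrays in 1 model, two-sided, Benjamini-Hochberg over all 31042 probe sets).

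Class II promoters are known for a conserved X box followed by a Y box, where RFX, CREB and NF-Y proteins hold Ciita. Promoter windows of RefSeq (assembly GRCr8, 250 bases before to 50 after the gene start), held for 7 of the 9 genes, were searched on both strands for an X box core, GNNAC followed at once by NGATG, and a Y box core spelled TGATTGG. The Y core holds CCAAT on its other strand. Both cores stood on 1 strand, X before Y and at most 30 bases apart, in 7 of 33469 promoters (0.0209%), and 4 of these 7 belong to RT1-Da, RT1-Db1, RT1-Bb and RT1-DMa. They are printed with 15 bases on each side because they show the element that these genes share, with the X and Y cores in capitals, 5′ to 3′ in the direction of the gene:
RT1-Da (chr20:4515318-4515385, plus strand): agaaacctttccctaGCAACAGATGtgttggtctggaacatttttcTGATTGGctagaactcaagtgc
RT1-Db1 (chr20:4560223-4560289, minus strand): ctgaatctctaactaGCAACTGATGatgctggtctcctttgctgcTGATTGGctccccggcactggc
RT1-Bb (chr20:4604160-4604226, minus strand): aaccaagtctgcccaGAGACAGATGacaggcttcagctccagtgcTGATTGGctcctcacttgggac
RT1-DMa (chr20:4712380-4712447, minus strand): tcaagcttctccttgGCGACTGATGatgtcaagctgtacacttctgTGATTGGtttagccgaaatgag
RT1-Ba (chr20:4576997-4577033, plus strand, Y core only): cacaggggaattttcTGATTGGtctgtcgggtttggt

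The cores lay 21 bases apart in RT1-Da and RT1-DMa and 20 bases apart in RT1-Db1 and RT1-Bb. The other 3 promoters with the pair belong to RT1-Db2 and RT1-DOb, class II chain genes outside the 9, and to Hsd17b7, an enzyme of steroid and cholesterol synthesis. Taken singly, the X core occurred in 2.84% of all promoters, the Y core in 7.06% and CCAAT in 37.5%, against 4, 5 and 7 of the 7 class II promoters. Neither core was found in the windows of Cd74 and Ctss. RT1-DMb and Ciita were not matched. The letters and the spacing were chosen with these sequences in view, and a match describes letters, not binding.

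SU5416 arrays 1 and 2 stood apart from SU5416 array 3, and from all hypoxia and normoxia arrays, on part of the RT1 complex, the rat MHC. The pattern was noticed in the data and is described without a test. RT1-Bb probe set 1371065_at read 11.72 and 11.43 on SU5416 arrays 1 and 2 and 6.70 on SU5416 array 3, against 4.80 to 6.90 on the hypoxia arrays and 4.41 to 6.82 on the normoxia arrays. RT1-Ba probe set 1377334_at read 11.09 and 11.53 on SU5416 arrays 1 and 2 and 8.15 on array 3, against 8.07 to 8.41 in hypoxia and 8.36 to 8.50 in normoxia. On both probe sets, SU5416 array 3 lay within the range of the hypoxia and normoxia arrays.

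The other probe sets of the same genes did not follow. RT1-Bb 1371033_at was lower on SU5416 arrays 1 and 2 (12.19 and 12.18) than on every other array, where it read 12.90 on SU5416 array 3, 12.44 to 12.69 in hypoxia and 12.56 to 12.76 in normoxia. RT1-Ba 1370822_at read 11.87, 11.84 and 12.33 on the SU5416 arrays, 11.52 to 11.85 in hypoxia and 10.85 to 11.89 in normoxia. Thus 1 probe set of RT1-Bb was high and the other low on the same pair of arrays, and the signal of RT1-Bb and RT1-Ba depends on which probe set is read. Across the 11 arrays, RT1-Bb 1371065_at and RT1-Ba 1377334_at had r = 0.93, a value carried by those arrays.

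**Figure D1:**
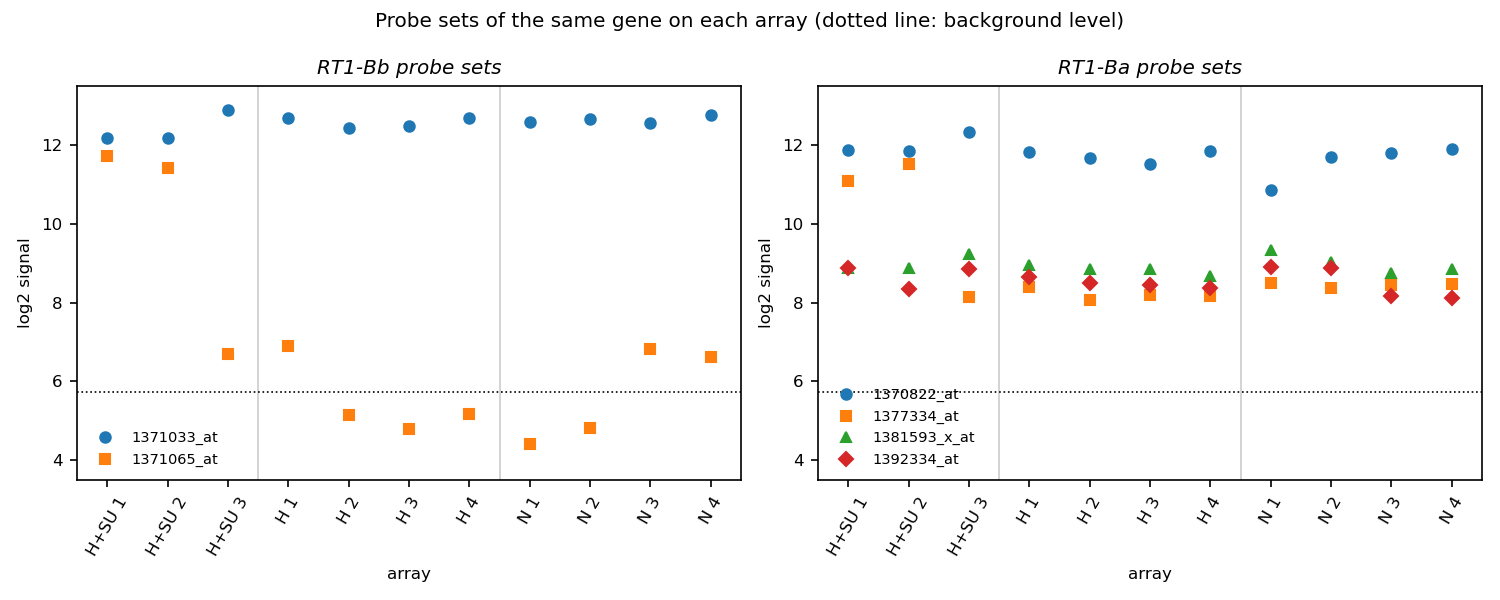
Log2 signal (vertical axis) of the 2 RT1-Bb probe sets (left) and the 4 RT1-Ba probe sets (right) on each of the 11 arrays, with hypoxia with SU5416 (H+SU), hypoxia (H) and normoxia (N) from left to right and the background level of 5.72 dotted. RT1-Bb 1371065_at and RT1-Ba 1377334_at are high on SU5416 arrays 1 and 2, and RT1-Bb 1371033_at is low there.

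The same arrays stood apart on class I genes of the complex. In the counts here and below, a probe set was taken to stand apart only if its highest array was above background. Arrays 1 and 2 themselves can meet this condition, and shares are of all probe sets, dim ones included. Out of 31042 probe sets, SU5416 arrays 1 and 2 both exceeded the other 9 arrays by more than 1 log2 on 11 (0.0354%). Of these, 9 name a gene, and each of the 9 is an RT1 gene, which makes 9 of the 37 RT1 probe sets on the array (24.3%): the RT1-Bb and RT1-Ba probe sets above and 7 outside the 9 class II genes. RT1-A3;RT1-A2 1370428_x_at, for class I heavy chains, read 12.65 and 12.46 on SU5416 arrays 1 and 2 and 6.72 on array 3, against 6.63 to 7.04 in hypoxia and normoxia together. RT1-CE5 1371209_at, another class I gene, read 9.76 and 10.19 on arrays 1 and 2, while array 3 and all hypoxia and normoxia arrays were below background. The remaining 5 are 2 further probe sets of RT1-CE5 and those of RT1-N2, RT1-T24-3 and RT1-A. In the opposite direction, 5 probe sets were lower on arrays 1 and 2 by more than 1, and none of them names an RT1 gene.

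Smaller shifts went both ways within the complex. By any margin, SU5416 arrays 1 and 2 were above the other 9 on 10 of the 37 RT1 probe sets (27.0%, against 1.89% of all probe sets) and below them on 6 (16.2%, against 2.0%). Among the 6 were RT1-Bb 1371033_at and 4 probe sets of the class I gene RT1-S3. Other genes that lie between RT1-M2 and RT1-A1, the outermost RT1 genes in RefSeq, have 121 probe sets. On none of these were SU5416 arrays 1 and 2 above the others, against 1.89% of all probe sets. They were below on 3, those of the peptide transporters Tap1 and Tap2 and of H2-Q7-ps1. That share of 2.48% is near the 2.0% of all probe sets. Tap1 read 9.04 and 9.88 on SU5416 arrays 1 and 2 and 10.62 on array 3, against 10.27 to 10.52 in hypoxia and 10.37 to 10.49 in normoxia. The 4 probe sets of Cd74, Ctss and Ciita, which lie outside the complex, did not stand apart. Among the 54 other pairs of arrays, no pair stood apart by more than 1 on over 1 RT1 probe set. The source of this pattern was not tested, and differences that rest on RT1 probe sets are therefore also given without SU5416 arrays 1 and 2.

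**Figure D2:**
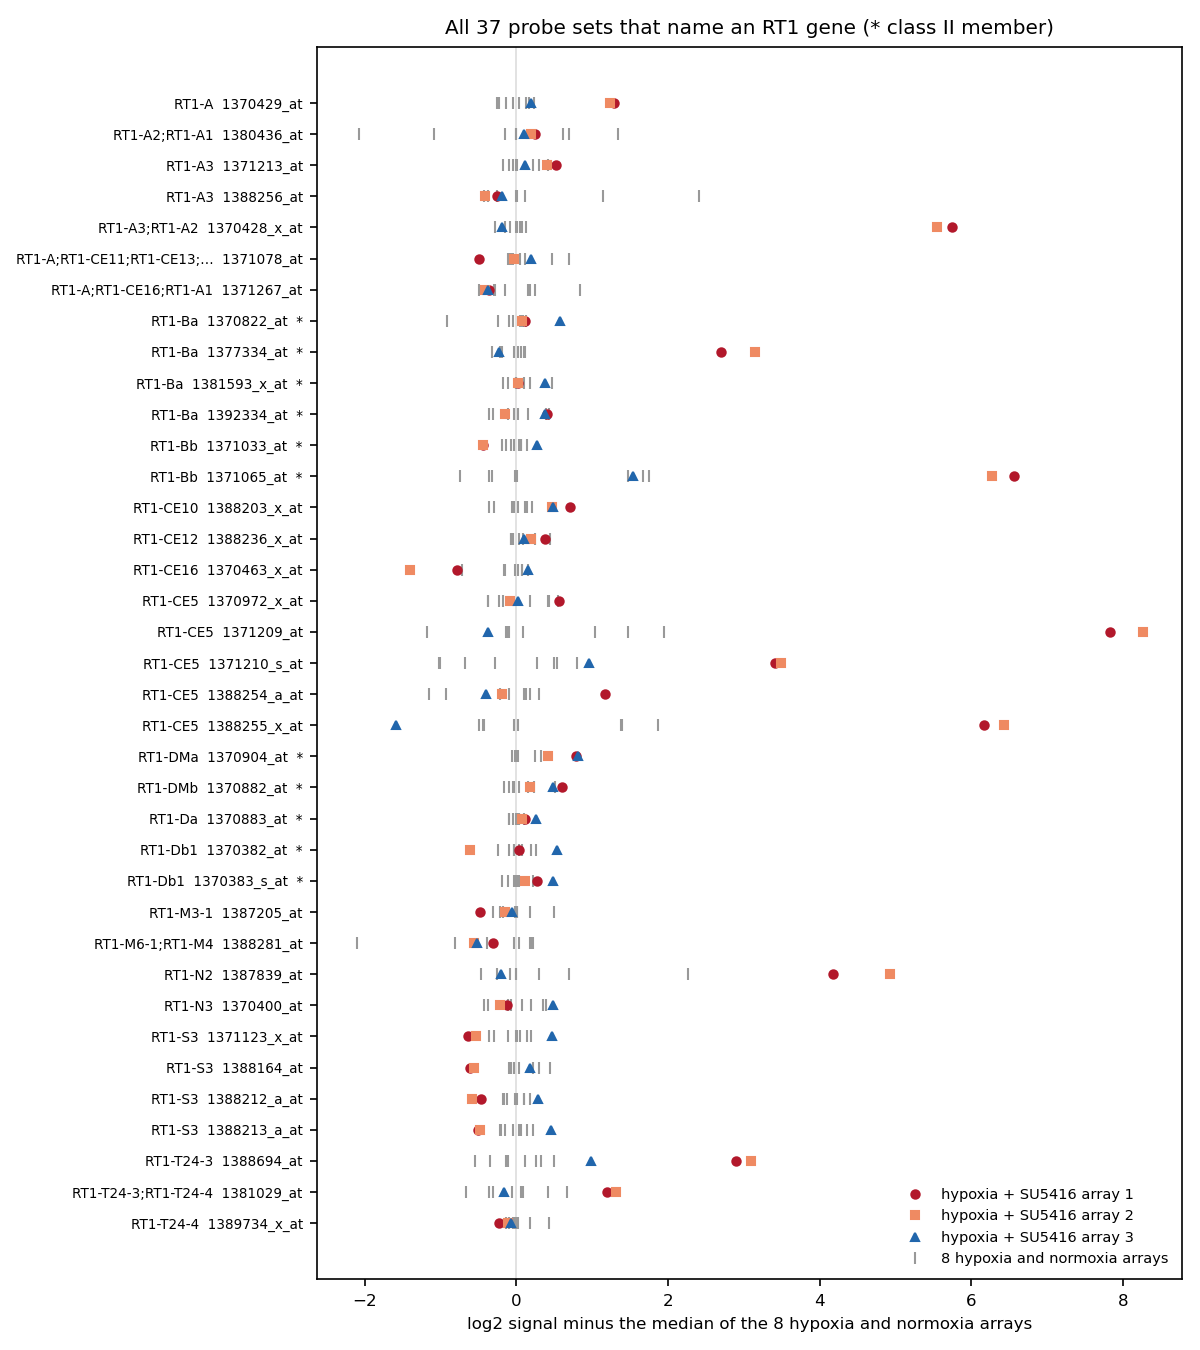
Log2 signal minus the median of the 8 hypoxia and normoxia arrays (horizontal axis) for all 37 probe sets that name an RT1 gene (rows, class II members starred), with the SU5416 arrays as coloured symbols and the 8 other arrays as grey ticks. SU5416 arrays 1 and 2 lie to the right of every other array by more than 1 log2 on 9 rows, and array 3 on none.

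In hypoxia with SU5416 against normoxia, none of the 15 class II probe sets passed the test, where 0.0612% of all probe sets did. The median difference was 0.33, against −0.04 over all probe sets tested, and 14 of the 15 differences were above 0, against 44.5% of all probe sets. The lowest adjusted p was 0.169, for RT1-DMa. At an unadjusted p under 0.05, 5 were higher in hypoxia with SU5416 (4.82% of all probe sets) and none lower, namely RT1-DMa, Ctss, RT1-Db1 1370383_s_at and the 2 RT1 probe sets set by arrays 1 and 2. All SU5416 arrays exceeded all normoxia arrays for 4 of 15 (4.94% of all probe sets): RT1-DMa, Ctss, Ciita 1379381_at and RT1-Db1 1370383_s_at. Probe sets of 1 pathway on the same arrays are not independent, so these counts are a description. In whole lung, more cells of a type and more RNA per cell cannot be told apart. The median was 0.30 without the 2 probe sets on which arrays 1 and 2 stood apart and 0.41 with SU5416 array 3 alone, but 0.20 without normoxia arrays 1 and 2.

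Hypoxia with SU5416 against hypoxia, which shares the SU5416 arrays with the first comparison, likewise called none of the 15 (0.0258% of all probe sets). The median difference was 0.30, against 0.01 over all probe sets, with 13 differences above 0 (52.4% of all probe sets) and 2 below. The lowest adjusted p was 0.287, again for RT1-DMa. At an unadjusted p under 0.05, 5 were higher (4.02% of all probe sets) and none lower: RT1-DMa, Ciita 1379381_at, Ctss and again the RT1-Bb and RT1-Ba probe sets above. All SU5416 arrays exceeded all hypoxia arrays for 4 (6.27% of all probe sets), RT1-DMa, RT1-Da and both probe sets of Ciita. The median was 0.23 without the 2 probe sets on which arrays 1 and 2 stood apart, 0.41 with SU5416 array 3 alone and 0.14 without it.

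Hypoxia against normoxia gave small differences in class II genes. None of the 15 passed the test (0.00644% of all probe sets) and none had an unadjusted p under 0.05, higher (3.33% of all probe sets) or lower (7.64%). The median was −0.03, against −0.04 over all probe sets, and single differences ran from −0.23 to 0.21, with 4 above 0, 10 below it and Ctss at 0.00. No probe set separated the hypoxia arrays from the normoxia arrays (6.13% of all probe sets). The adjusted p ranged from 0.589 to 1.

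**Figure D3:**
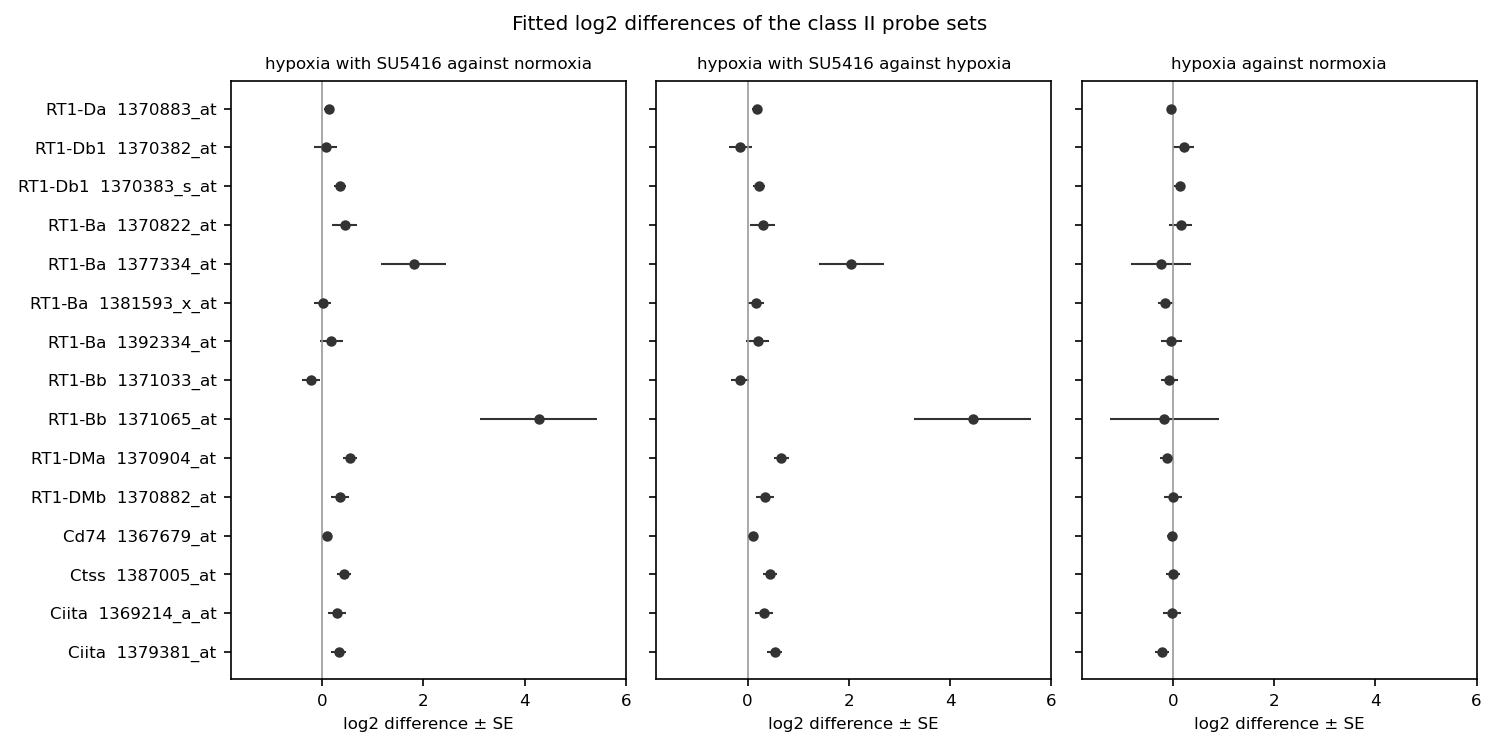
Fitted log2 differences (points) with their standard errors (bars) for the 15 class II probe sets (rows) in hypoxia with SU5416 against normoxia, hypoxia with SU5416 against hypoxia, and hypoxia against normoxia, from left to right. Most points of the SU5416 panels lie just above 0, RT1-Bb 1371065_at and RT1-Ba 1377334_at lie far above it with wide bars, and those of the panel on hypoxia alone lie near 0.

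RT1-DMa, a chain of the peptide exchange molecule, differed most clearly among the genes not set by arrays 1 and 2. It read 10.75, 10.38 and 10.77 on the SU5416 arrays, 9.98, 9.95, 9.96 and 9.96 on the hypoxia arrays, and 9.94, 9.90, 10.29 and 10.21 on the normoxia arrays. Every SU5416 array was above every array of both other groups, while hypoxia and normoxia overlapped. The difference was 0.55 (SE 0.14, 1.46-fold, limma adjusted p = 0.169) against normoxia and 0.67 (SE 0.14, 1.59-fold, adjusted p = 0.287) against hypoxia, neither of which passed the test. Over the alternatives the adjusted p ran from 0.0619 to 0.434 against normoxia and from 0.103 to 0.613 against hypoxia, so it was called under none. With SU5416 array 3 alone the differences were 0.69 and 0.81. Without normoxia arrays 1 and 2, the lowest of their group, the difference against normoxia was 0.38, the smallest over the alternatives.

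Its partner RT1-DMb read 11.25, 10.82 and 11.13 with SU5416, 10.80, 10.61, 10.60 and 10.88 in hypoxia, and 10.48, 10.55, 10.68 and 11.16 in normoxia. Normoxia array 4 lay above SU5416 arrays 2 and 3, so the groups overlapped. The difference was 0.35 (SE 0.18, limma adjusted p = 0.462) against normoxia and 0.34 (SE 0.18, adjusted p = 0.734) against hypoxia. It was 0.41 against either group with SU5416 array 3 alone, and 0.15 against normoxia without normoxia arrays 1 and 2.

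Cd74, the invariant chain, was close to level across the groups. It read 13.44, 13.48 and 13.38 with SU5416, 13.34, 13.20, 13.30 and 13.46 in hypoxia, and 13.28, 13.47, 13.22 and 13.39 in normoxia. The groups overlapped, and the differences of 0.09 (SE 0.10, limma adjusted p = 0.755) against normoxia and 0.11 (SE 0.10, adjusted p = 0.87) against hypoxia were about as large as their errors.

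Cathepsin S, the protease that trims the invariant chain, read 12.12, 11.72 and 12.09 with SU5416, 11.44, 11.38, 11.78 and 11.56 in hypoxia, and 11.40, 11.65, 11.59 and 11.52 in normoxia. All SU5416 arrays were above the normoxia arrays, and all but array 2 were above the hypoxia arrays. Ctss averaged 11.98 ± 0.22 with SU5416 (SD, n = 3), 11.54 ± 0.18 in hypoxia (n = 4) and 11.54 ± 0.11 in normoxia (n = 4). The difference was 0.44 (SE 0.14, 1.35-fold) against either group and did not pass the test (limma adjusted p = 0.267 against normoxia and 0.519 against hypoxia). Over the alternatives it stayed between 0.36 and 0.56 in both comparisons.

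**Figure D4:**
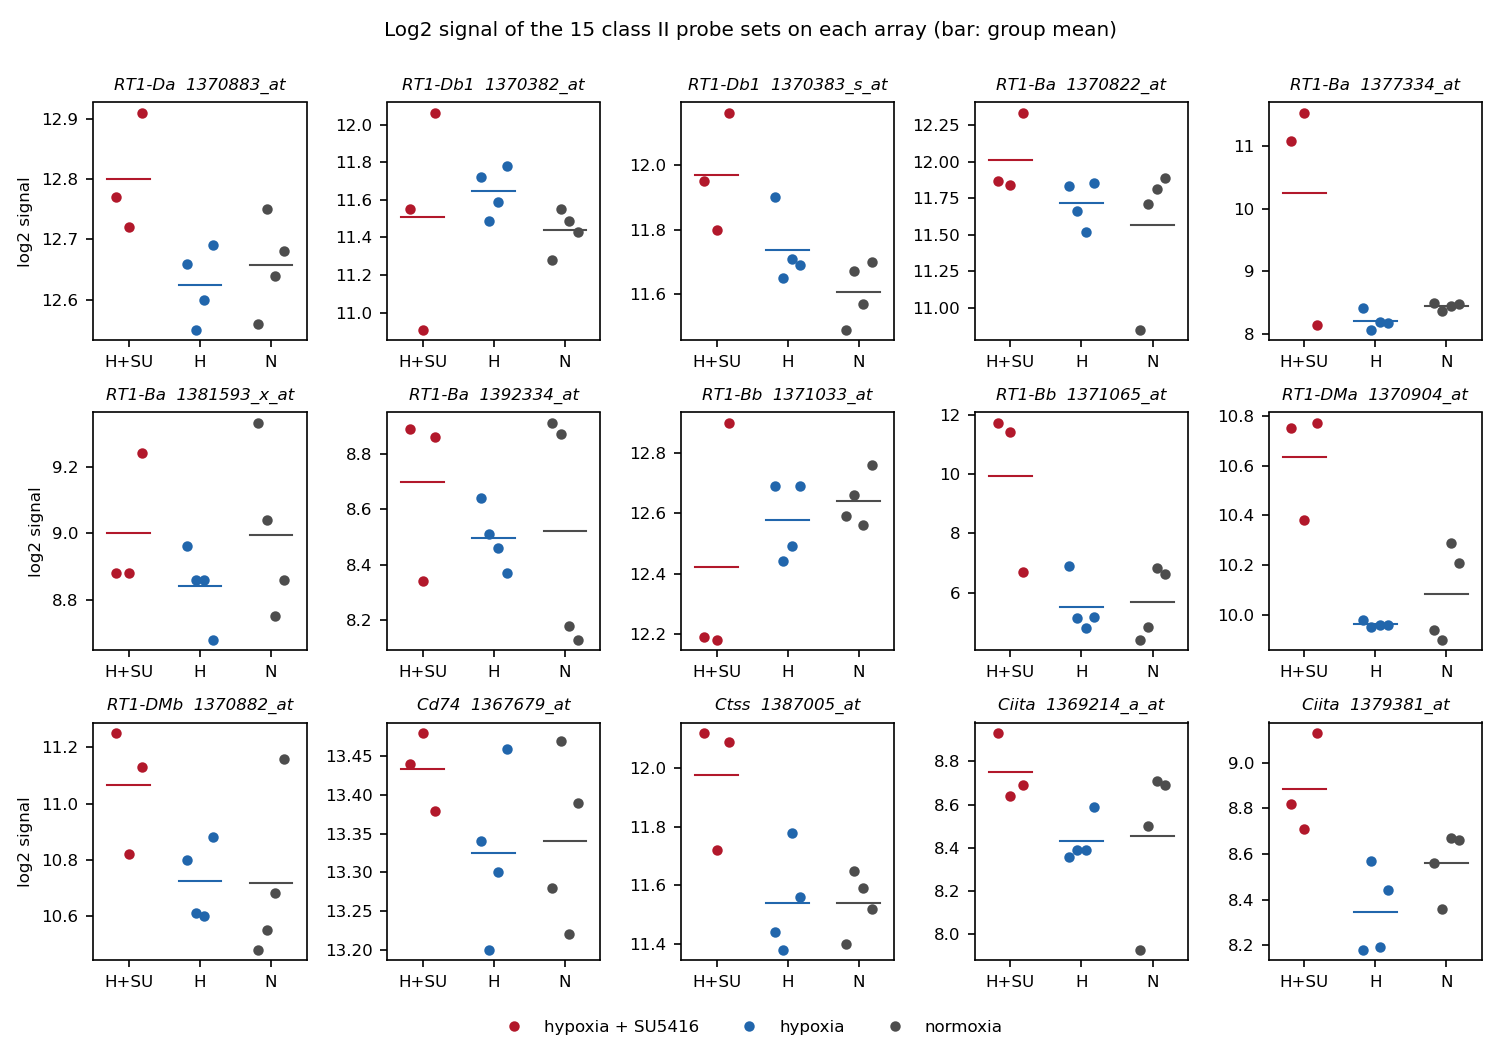
Log2 signal (vertical axes, scaled to each panel and not starting at 0) of the 15 class II probe sets on every array, with hypoxia with SU5416 (H+SU) left, hypoxia (H) in the middle and normoxia (N) right, points for arrays and bars for group means. The SU5416 points of RT1-DMa lie above those of both other groups, whereas those of RT1-Bb and RT1-Ba split by array.

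The DR-type chains were less clear. RT1-Da, the alpha chain, read 12.77, 12.72 and 12.91 with SU5416, 12.66, 12.55, 12.60 and 12.69 in hypoxia, and 12.56, 12.75, 12.64 and 12.68 in normoxia. All SU5416 arrays lay above the hypoxia arrays, by little, and overlapped with normoxia. The difference was 0.14 (SE 0.10, limma adjusted p = 0.578) against normoxia and 0.18 (SE 0.10, adjusted p = 0.756) against hypoxia, and with SU5416 array 3 alone it was 0.25 and 0.28.

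The beta chain RT1-Db1 has 2 probe sets from 1 source sequence. Its 1370383_s_at read 11.95, 11.80 and 12.16 with SU5416, 11.90, 11.65, 11.71 and 11.69 in hypoxia, and 11.49, 11.67, 11.57 and 11.70 in normoxia, a difference of 0.36 (SE 0.12, limma adjusted p = 0.271) against normoxia and 0.23 (SE 0.12, adjusted p = 0.728) against hypoxia. Its 1370382_at read 11.55, 10.91 and 12.06 with SU5416, 11.72, 11.49, 11.59 and 11.78 in hypoxia, and 11.28, 11.55, 11.49 and 11.43 in normoxia. SU5416 array 2 was the lowest and array 3 the highest of all 11 arrays on 1370382_at, and its differences were 0.07 (SE 0.22) against normoxia and −0.14 (SE 0.22) against hypoxia. With SU5416 array 3 alone the difference against normoxia was 0.55 for 1370383_s_at and 0.62 for 1370382_at, and that against hypoxia was 0.42 for each of these probe sets. The 2 probe sets therefore differ in direction against hypoxia with all arrays but not with array 3 alone.

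For the DQ-type chains, the fit gave 4.28 (SE 1.16, limma adjusted p = 0.199) for RT1-Bb 1371065_at and 1.81 (SE 0.64, adjusted p = 0.302) for RT1-Ba 1377334_at in hypoxia with SU5416 against normoxia. Against hypoxia the same probe sets gave 4.45 (SE 1.16, adjusted p = 0.442) and 2.05 (SE 0.64, adjusted p = 0.504). Both rest on SU5416 arrays 1 and 2. With array 3 alone, RT1-Ba 1377334_at was at −0.30 against normoxia and −0.06 against hypoxia, and without array 3 it was called, at 2.86 and 3.10 (adjusted p = 0.00025 and 0.000125). Over all alternatives its adjusted p ran from 0.00025 to 0.81 against normoxia and from 0.000125 to 1 against hypoxia. RT1-Bb 1371065_at with array 3 alone was at 1.03 against normoxia and 1.20 against hypoxia, where 5 of the 8 hypoxia and normoxia arrays were below background.

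The other DQ-type probe sets gave smaller values. RT1-Bb 1371033_at differed by −0.22 (SE 0.17, limma adjusted p = 0.647) against normoxia and by −0.15 (SE 0.17, adjusted p = 0.888) against hypoxia, but by 0.26 and 0.32 with array 3 alone. RT1-Ba 1370822_at differed by 0.45 (SE 0.25, adjusted p = 0.488) against normoxia and by 0.30 (SE 0.25, adjusted p = 0.848) against hypoxia. Normoxia array 1, the array of widest beta-actin gap, was lowest on it, and without normoxia arrays 1 and 2 the difference against normoxia was 0.16. The part of RNA degradation in that difference was not tested. With SU5416 array 3 alone RT1-Ba 1370822_at was at 0.76 against normoxia and 0.61 against hypoxia, and leaving out 1 array at a time the value against hypoxia ran from 0.14 to 0.38. The probe sets 1381593_x_at and 1392334_at of RT1-Ba, which share 1 source sequence, ranged from 8.34 to 9.24 with SU5416, 8.37 to 8.96 in hypoxia and 8.13 to 9.33 in normoxia, and their differences lay between 0.01 and 0.20. With SU5416 array 3 alone, 1381593_x_at was at 0.25 against normoxia and 0.40 against hypoxia, and 1392334_at at 0.34 and 0.37. On 1392334_at normoxia arrays 1 and 2 were the highest of their group, at 8.91 and 8.87, and without them the difference against normoxia was 0.55, so leaving out these arrays raised it here and lowered it for RT1-Ba 1370822_at.

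Ciita, the transactivator, has 2 probe sets. Its 1379381_at read 8.82, 8.71 and 9.13 with SU5416, 8.18, 8.57, 8.19 and 8.44 in hypoxia, and 8.56, 8.36, 8.67 and 8.66 in normoxia. Every SU5416 array was above every other array, though SU5416 array 2 and normoxia array 3 lay close together. The difference was 0.33 (SE 0.15, limma adjusted p = 0.409) against normoxia and 0.54 (SE 0.15, adjusted p = 0.442) against hypoxia. Its 1369214_a_at read 8.93, 8.64 and 8.69 with SU5416, 8.36, 8.39, 8.39 and 8.59 in hypoxia, and 7.93, 8.50, 8.71 and 8.69 in normoxia. Here the SU5416 arrays were above the hypoxia arrays and overlapped with normoxia, with differences of 0.32 (SE 0.18, adjusted p = 0.77) against hypoxia and 0.30 (SE 0.18, adjusted p = 0.548) against normoxia. The normoxia value is lowered by array 1, and without normoxia arrays 1 and 2 the difference against normoxia was 0.05 for 1369214_a_at and 0.22 for 1379381_at.

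Most pairs of class II genes were positively correlated across arrays, with RT1-Bb probe set 1371033_at as the exception. With the brightest probe set of each gene, the 36 pairs of the 9 genes had a median Pearson r of 0.59 over 11 arrays, from −0.18 to 0.85, and 33 of the 36 were above 0. The 8 pairs of RT1-Bb 1371033_at lay between −0.18, with Ctss, and 0.23, with RT1-Da, and held all 3 that were below 0. The other RT1-Bb probe set, 1371065_at, lay between 0.40, with RT1-Ba 1370822_at, and 0.72, with RT1-DMa, against the same probe sets. SU5416 arrays 1 and 2 stood apart on both RT1-Bb probe sets, and the correlations were not repeated without those arrays. These correlations share arrays, depth of signal and group differences and are given as a description. The mean deviation of the 9 genes from their own 11-array means was 0.20, 0.04 and 0.39 on the SU5416 arrays, −0.06, −0.15, −0.13 and −0.01 on the hypoxia arrays, and −0.24, −0.07, −0.03 and 0.07 on the normoxia arrays. SU5416 array 3 was highest, and SU5416 array 2 lay below normoxia array 4.

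Among 9519 other genes, Sidt2, a lysosomal membrane protein, had the profile most like that mean (r = 0.94 over 11 arrays), followed by the mitochondrial ribosomal protein Mrps18b (0.92) and the nuclear transport GTPase Ran (0.91). Ncf4, Prr13, Tmem176b, Emc6 and Rab8a were at 0.90. After the group means were taken out, the closest was Csf1r, the receptor for the macrophage growth factor CSF1, at 0.95, followed by Apeh and Tgoln2 (0.92), Cers2, Apoe and Fuca1 (0.91) and C4bpa and Slc22a23 (0.90). Csf1r read 11.29, 11.24 and 11.64 with SU5416, 11.47, 11.24, 11.34 and 11.48 in hypoxia, and 11.11, 11.37, 11.43 and 11.58 in normoxia. Csf1r thus followed the class II mean from array to array within the groups while its group means lay between 11.37 and 11.39. Each gene named in both rankings, like the class II mean, was lowest in normoxia on array 1, the array of widest beta-actin gap. The part of RNA degradation in this likeness was not tested. These r values are the highest among the 9519 genes ranked and are a description.

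Other genes of the class II route, such as endosomal proteases, the RFX factors and costimulatory ligands, were measured for 21 of 25 symbols. None was called in any of the 3 comparisons. In hypoxia with SU5416 against normoxia 13 were higher and 8 lower, with a median of 0.05. Cathepsin Z (Ctsz) differed by 0.73 (SE 0.18, limma adjusted p = 0.159) and read 10.90, 10.41 and 10.54 with SU5416, against 9.48, 9.85, 10.04 and 10.19 in normoxia. Ifi30, the thiol reductase that opens antigens in the endosome, differed by 0.54 (SE 0.17, adjusted p = 0.265), and Mif, a ligand of Cd74, by 0.70 (SE 0.18, adjusted p = 0.171). For these 3 genes too, all SU5416 arrays lay above all normoxia arrays. In hypoxia against normoxia, Mif differed by 0.50 (SE 0.16, adjusted p = 0.348), Ctsz by 0.30 (SE 0.16, adjusted p = 0.536) and Ifi30 by 0.22 (SE 0.16, adjusted p = 0.639). Creb1, a factor that binds the X box region, differed from normoxia by −0.42 (SE 0.19, adjusted p = 0.423) on the SU5416 arrays. On the hypoxia arrays Creb1 differed from normoxia by −0.28 (SE 0.18, adjusted p = 0.588). Against hypoxia the list had 14 higher and 7 lower, with a median of 0.07, and cathepsin L (Ctsl) differed by 0.41 (SE 0.17, adjusted p = 0.639).

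Genes of class I presentation and of the interferon gamma response, the known inducer of Ciita, were measured for 20 of 25 and 16 of 19 symbols, and none was called in any comparison. The class I median was −0.07 against normoxia and 0.08 against hypoxia in hypoxia with SU5416, with 9 higher and 11 lower in the first and 12 higher and 8 lower in the second. This list holds RT1 class I and Tap probe sets on which SU5416 arrays 1 and 2 stood apart: its mean deviation was −0.12, −0.14 and 0.23 on SU5416 arrays 1, 2 and 3, −0.15 to 0.07 in hypoxia and 0.01 to 0.20 in normoxia. With SU5416 array 3 alone, an alternative added after seeing the data, the class I median was 0.16 against normoxia and 0.21 against hypoxia. For the interferon gamma list the medians were −0.03 and 0.11, with 7 higher and 9 lower, and 12 higher and 4 lower. Irf1, a factor induced by interferon gamma, read 10.04, 10.71 and 10.71 with SU5416, 10.57, 10.53, 10.57 and 10.61 in hypoxia, and 10.90, 10.92, 10.98 and 11.25 in normoxia. Every array of both hypoxia groups was below every normoxia array, with differences against normoxia of −0.53 (SE 0.17, limma adjusted p = 0.268) in hypoxia with SU5416 and −0.44 (SE 0.16, adjusted p = 0.374) in hypoxia. Cxcl10, a chemokine induced by interferon gamma, differed by 0.51 (SE 0.29, adjusted p = 0.507) in hypoxia with SU5416 against normoxia and by 1.04 (SE 0.29, adjusted p = 0.442) against hypoxia. Its mean was 8.05 with SU5416, 7.01 in hypoxia and 7.55 in normoxia. Cxcl11 differed by 0.33 (SE 0.14, adjusted p = 0.637) against hypoxia, with means of 7.79 with SU5416, 7.45 in hypoxia and 7.81 in normoxia. In hypoxia against normoxia Cxcl11 differed by −0.35 (SE 0.13, adjusted p = 0.379). The interferon gamma list had 3 higher and 13 lower in that comparison (median −0.18), where 42.4% of all probe sets were higher. Ifng, the interferon gamma gene itself, was below background on every array.

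Of the markers of cells that carry class II, 1 passed the test, in the list of interstitial macrophages and monocytes. All 12 markers of interstitial macrophages and monocytes were measured, and their mean deviation was 0.33 to 0.78 on the SU5416 arrays, −0.31 to −0.18 in hypoxia and −0.56 to 0.05 in normoxia. Their summed linear signal, in log2, was 14.17 to 14.49 with SU5416, 13.77 to 13.95 in hypoxia and 13.95 to 14.12 in normoxia. The SU5416 arrays thus lay above all others, though by little against normoxia. Such a sum is weighted to the brightest probe sets, among them Lyz2, with a mean of 12.78 in hypoxia and 13.17 in normoxia. Without Ms4a7, left out after seeing the data because only the SU5416 arrays measured it above background, the mean deviation was 0.13 to 0.46 with SU5416, −0.20 to −0.05 in hypoxia and −0.49 to 0.13 in normoxia, so SU5416 array 2 and normoxia array 3 were level. The summed signal was then 14.14 to 14.41 with SU5416, 13.77 to 13.95 in hypoxia and 13.95 to 14.12 in normoxia. Of the 12, 8 were higher and 4 lower against normoxia (median 0.32), and 10 were higher and 2 lower against hypoxia (median 0.30), and the medians without Ms4a7 were 0.23 and 0.27. Ms4a7, a membrane protein of macrophages, was the only one called: it read 9.49, 8.58 and 10.28 with SU5416 and was below background on every hypoxia and normoxia array (limma adjusted p = 0.000923 against hypoxia and 0.00263 against normoxia). The complement genes C1qa and C1qc differed by 1.37 (SE 0.20) and 1.62 (SE 0.24) against normoxia (adjusted p = 0.0555 for each), whereas Adgre1 differed by −0.87 (SE 0.17, adjusted p = 0.105). The part of these cells in the class II differences was not tested.

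For alveolar macrophages, 8 of 10 markers were measured, with a mean deviation of 0.07 to 0.28 with SU5416, −0.08 to 0.05 in hypoxia and −0.68 to 0.29 in normoxia, and none was called. Their summed signal was 13.56 to 14.02 with SU5416, 13.31 to 13.63 in hypoxia and 12.84 to 13.53 in normoxia. In hypoxia with SU5416, 5 of the 8 were higher and 3 lower against normoxia (median 0.44), and 6 were higher and 2 lower against hypoxia (median 0.28). Against normoxia, Chi3l1 differed by 0.99 (SE 0.21, limma adjusted p = 0.117), Mrc1 by 0.62 (SE 0.18, adjusted p = 0.216) and Car4 by −0.91 (SE 0.14, adjusted p = 0.059). Which cells of the whole lung gave these signals was not tested. The mean of Fabp1 over all 11 arrays was below background, though single arrays of hypoxia with SU5416 and of normoxia were above it. B cell markers, measured for 9 of 12, had a summed signal of 11.16 to 11.34 with SU5416, 11.04 to 11.46 in hypoxia and 11.60 to 11.71 in normoxia, where the normoxia arrays lay above all others. Bank1, a B cell scaffold protein, read 7.92, 7.92 and 7.94 with SU5416, 7.96, 8.06, 8.26 and 8.99 in hypoxia, and 9.72, 9.49, 8.96 and 9.26 in normoxia, a difference of −1.43 (SE 0.25, adjusted p = 0.0766) against normoxia. Of the B cell list, 7 of 9 were lower and 2 higher in hypoxia with SU5416 against normoxia, where 44.5% of all probe sets were higher. In hypoxia against normoxia 8 of 9 were lower and 1 higher, where 42.4% of all probe sets were higher. No B cell marker was called.

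Dendritic cell markers, measured for 8 of 13, had a summed signal of 11.20 to 11.40 with SU5416, 10.97 to 11.14 in hypoxia and 10.99 to 11.40 in normoxia, and the defining marker Flt3 was below background on every array. Clec9a, another, read 4.57 to 5.07 with SU5416, 4.44 to 6.80 in hypoxia and 5.28 to 6.93 in normoxia. It was thus below background on all SU5416 arrays and above it on some arrays of both other groups. Of the 8, in hypoxia with SU5416, 5 were higher and 3 lower against normoxia (median 0.17). Against hypoxia 7 were higher and 1 lower (median 0.21). Batf3 differed against normoxia by 0.85 (SE 0.28, limma adjusted p = 0.275) in hypoxia with SU5416 and by 0.66 (SE 0.26, adjusted p = 0.404) in hypoxia. Markers of alveolar type II cells (7 measured) had a mean deviation of 0.04 to 0.06 with SU5416, −0.15 to 0.07 in hypoxia and −0.13 to 0.13 in normoxia. Those of T and NK cells (12 measured) had −0.25 to −0.02 with SU5416, −0.26 to −0.05 in hypoxia and −0.18 to 0.48 in normoxia. The 6 pan-leukocyte markers had −0.08 to 0.19 with SU5416, −0.15 to 0.01 in hypoxia and −0.30 to 0.26 in normoxia. Like most B cell markers, 11 of the 12 T and NK cell markers were lower against normoxia in hypoxia with SU5416 (median −0.28). The count was also 11 of 12 in hypoxia against normoxia (median −0.37). None of these 4 lists held a called gene. How much each cell type contributes to the class II signal was not tested.

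**Figure D5:**
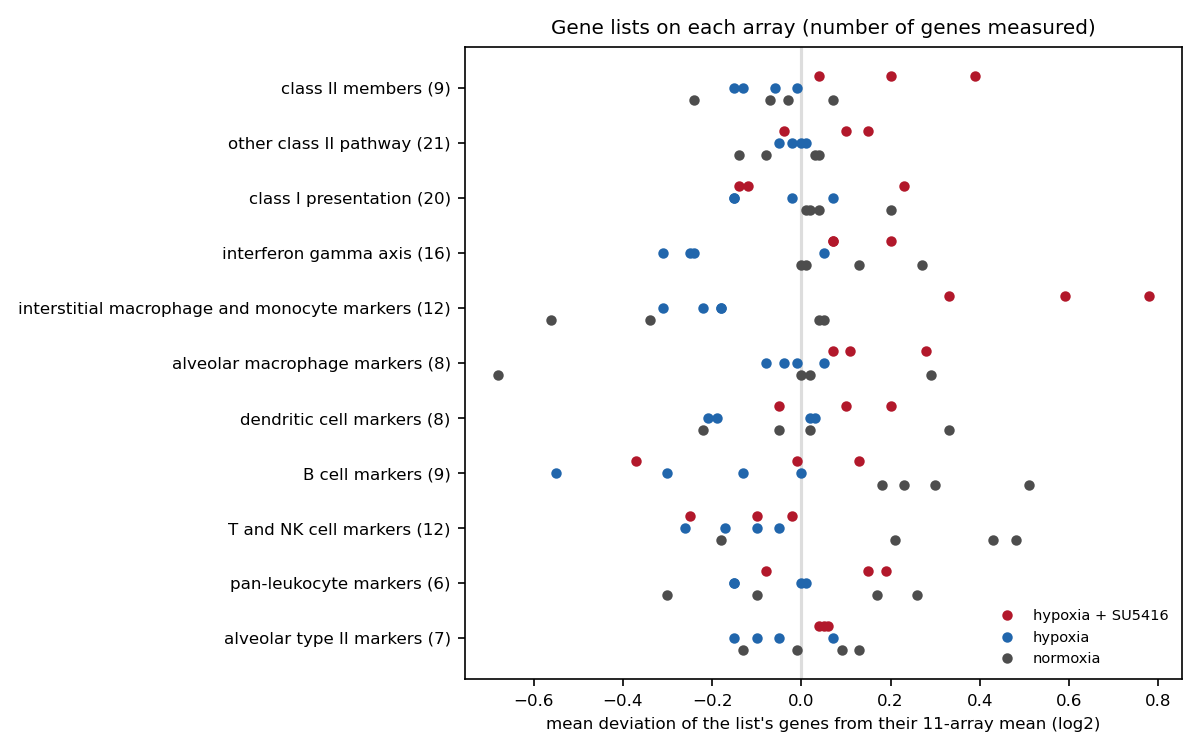
Mean deviation of each gene list from the 11-array means of its genes (horizontal axis, log2) on every array, with hypoxia with SU5416 above hypoxia and normoxia within each row and the number of genes measured in brackets. The SU5416 points of the macrophage and monocyte list lie between 0.33 and 0.78 with Ms4a7 included and between 0.13 and 0.46 without it, where normoxia reaches 0.13, and those of the class II genes between 0.04 and 0.39.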

How the data were processed

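RNA of 11 rat lung samples was hybridised to Affymetrix arrays, and the deposited table holds 1 log2 signal per array and probe set. Per the submitters' processing notes the values were made with RMA, without a version. However, linear values whose top and bottom 2% are removed average 500.0 on each array, while array medians run from 7.802 to 8.005, so the summarisation is uncertain and the log2 scale is not. Values were used as deposited.

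Of 31099 probe sets, 57 controls were left out and 31042 were tested with limma 3.58.1 (lmFit, eBayes, R 4.3.3), 1 mean per group over all 11 arrays (8 residual degrees of freedom), with Benjamini-Hochberg adjustment per comparison. The script was tested on simulated data. The study's SAM analysis was not run. Alternatives were quantile normalization, median centring, a filter on dim probe sets, fits of only the groups compared, trend and robust options, array weights, a replicate block, the beta-actin gap as a covariate, and fits without single arrays or pairs of arrays. Names came from the array annotation, and promoters from RefSeq. Tables and figures used Python 3.11.15, pandas 2.3.3, numpy 2.4.6 and matplotlib 3.10.9.

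The genes and lists were chosen with earlier results of these data known, and no list is independent evidence. Outside the 9 genes, the text names up to 4 genes per list and comparison with the smallest p, and the 8 genes most like the class II mean, in each of 2 ways. The RT1 genes around SU5416 arrays 1 and 2 were added after the values were seen. The number of arrays limits the precision.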

Additional observations from a re-analysis of the deposited data

Results flagged for a closer look

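One value stood apart from its group by Dixon's test at the 95% level. Ciita 1369214_a_at read 8.59 on hypoxia array 4, against 8.36 to 8.39 on the other 3 hypoxia arrays (ratio of gap to range 0.885). In all, 30 groups of 4 arrays were examined, and chance marks about 1 in 20. The other Ciita probe set, 1379381_at, read 8.44 on that array, within the 8.18 to 8.57 of its group.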

How the results depend on the processing

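Each class II probe set was refitted under 20 or 21 alternatives in each comparison, and 2 of the 45 combinations were ever called, both RT1-Ba 1377334_at without SU5416 array 3 (1 called probe set in each SU5416 comparison). Leaving out 1 array at a time, 0 to 1 class II probe sets were called in the SU5416 comparisons and 0 in hypoxia against normoxia. The class II median then ran from 0.26 to 0.41 in hypoxia with SU5416 against normoxia, from 0.14 to 0.38 against hypoxia, and from −0.07 to −0.01 in hypoxia against normoxia. The median against normoxia was 0.20 without normoxia arrays 1 and 2, and likewise 0.20 once the beta-actin gap was a covariate. The median against hypoxia was 0.41 without SU5416 arrays 1 and 2, an alternative chosen after seeing the data in which the lone array is assumed to vary like the other groups.

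No call changed with the sign of a difference; the cause of each change was not tested. In hypoxia against normoxia, quantile normalization gave 0.10 for Cd74, 0.05 for Ciita 1369214_a_at and 0.03 for RT1-Ba 1392334_at. Median centring gave 0.07, 0.07 and 0.06 for these, 0.02 for RT1-Bb 1371033_at and 0.06 for RT1-Da. Without normoxia arrays 1 and 2, Cd74 was at 0.02 and RT1-Ba 1370822_at, 1381593_x_at and 1392334_at at −0.14, 0.03 and 0.34. With the beta-actin gap, RT1-Ba 1370822_at was at −0.07 and 1392334_at at 0.14, and array weights gave 0.09 for 1392334_at. Leaving out 1 array, Cd74 ran from −0.06 to 0.03, Ciita 1369214_a_at from −0.20 to 0.06, RT1-Ba 1370822_at from −0.09 to 0.26, RT1-Ba 1392334_at from −0.16 to 0.10 and RT1-Bb 1371065_at from −0.64 to 0.21. In hypoxia with SU5416 against normoxia, RT1-Ba 1381593_x_at ran from −0.11 to 0.12 and RT1-Db1 1370382_at from −0.21 to 0.37, and against hypoxia RT1-Db1 1370382_at ran from −0.42 to 0.16. Without SU5416 arrays 1 and 2, RT1-Ba 1377334_at was at −0.30 against normoxia and −0.06 against hypoxia, RT1-Bb 1371033_at at 0.26 and 0.32, and RT1-Db1 1370382_at at 0.42 against hypoxia.

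The labels give the groups shared replicate numbers, but only 2 of 10 same-numbered pairs had deviations correlated over 0.1 (−0.125 to 0.128). With the replicate number as a block, 0 class II probe sets were called in each comparison, the medians were 0.36 for hypoxia with SU5416 over normoxia, 0.38 over hypoxia, and −0.03 for hypoxia over normoxia, and RT1-Ba 1381593_x_at was at −0.04 against normoxia. RT1-Bb 1371065_at was left out where dim probe sets were dropped.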
